A study of Homo sapiens with 14 samples.

Results

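The genes described here are 45 protein-coding genes for the folding, translocation, glycosylation and quality control of proteins in the endoplasmic reticulum (ER), together with the sensors and transcription factors of the unfolded protein response. They were taken by gene symbol from the 62703 rows of the count table. They comprise 11 chaperones and co-chaperones, 10 disulfide and proline isomerases, 5 sensors and transcription factors, 4 genes of ER-associated degradation, 8 subunits of the translocon and of the translocon-associated protein (TRAP) complex, and 7 genes of the oligosaccharyltransferase. Their mRNA was measured in 3 human prostate cancer cell lines after 3 days in 1.5 µM SEL120-34A, which inhibits the Mediator-associated kinases CDK8 and CDK19, or in the vehicle dimethylsulfoxide (DMSO). LNCaP depends on androgen and is sensitive to the androgen receptor blocker enzalutamide, 22Rv1 responds to androgen but is resistant to enzalutamide, and PC3 lacks the androgen receptor. LNCaP and 22Rv1 contributed 3 libraries per arm and PC3 contributed 1 library per arm, 14 in all. Each library held the bulk RNA of cultured cells, in which fewer cells of a kind and less RNA per cell cannot be told apart. The labels name no genetic change in any group.

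Secretory and membrane proteins enter the ER through the SEC61 channel, receive N-linked glycans from the oligosaccharyltransferase and fold with the help of chaperones and disulfide isomerases. When unfolded proteins build up, the sensors IRE1 (encoded by ERN1), PERK (EIF2AK3) and ATF6 raise the transcription of chaperones and degradation factors, in part through the transcription factor XBP1. Prostate epithelium is a secretory tissue, and prostate cancer cells carry a large load of secreted and membrane glycoproteins.

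Levels are given as CPM, the share of a library's counts scaled between libraries by TMM factors. The assay reads 1 tag at the 3′ end per transcript, so levels of different genes were compared without division by length. Total counts per library ranged from 246063 to 909176, and all 3 treated 22Rv1 libraries (246063 to 368778) were shallower than the 22Rv1 DMSO libraries (476455 to 777207). Counts this low leave rare transcripts poorly resolved, since 3 counts correspond to 12.2 CPM in the shallowest library and 3.30 CPM in the deepest. The cell line labels were checked with marker genes. KLK3, encoding prostate-specific antigen, ranged from 1039 to 1369 CPM in LNCaP DMSO, from 13.7 to 31.8 CPM in 22Rv1 DMSO, and was at 7.62 CPM in PC3 DMSO. VIM and CAV1, markers of PC3, were at 1262 and 637 CPM in PC3 DMSO and at most 47.5 and 28.6 CPM in the DMSO libraries of the other lines. KLK3 was thus low in the libraries labelled 22Rv1. The growth protocol in the labels names 22Rv1 alone for the samples of all lines, so groups rest on the cell line and treatment labels.

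Of the 45 genes, 40 had enough counts to be tested. TXNDC5 and TXNDC12 were listed at 0 counts in all 14 libraries. TXNDC5 shares 60.9% of its exon bases with the readthrough gene BLOC1S5-TXNDC5, also at 0, and what part the overlap has in the 0 was not tested. TXNDC12 shares 48.5% of its exon bases with another annotated gene that is also at 0. ERN1, EIF2AK3 and EDEM1 had 79, 66 and 119 counts over all libraries and did not pass the filter. The sensors of the unfolded protein response were therefore measured poorly: EIF2AK3 reached at most 11 counts in any library and ERN1 at most 12, while ATF6 was tested on 5 to 25 counts per LNCaP or 22Rv1 library. PDIA3 had 4004 counts in all and its pseudogene PDIA3P1 had 643, so that its values are uncertain.

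Many ER genes share promoter elements that ATF6 and XBP1 recognise. The elements are shown here because some of the genes that fell in 22Rv1 after treatment hold an exact match and others do not. Promoters of 300 bases (250 before and 50 after the start, RefSeq, GRCh38.p14) were available for 42 of the 45 genes. They were searched on both strands for exact matches to the ER stress response element (ERSE, CCAAT and CCACG with 9 bases between them). Exact matches to ERSE-II (ATTGG and CCACG with 1 base between them) were searched for as well. ERSE was found in 6 of the 42 promoters (14.3%), against 0.0806% of all 27305 promoters and 0.12% of the 15842 protein-coding ones. ERSE-II was found in 3 (7.14%), against 0.0549% of all promoters and 0.0757% of the protein-coding ones. Both elements are known from promoters of ER genes, so the larger shares here are not an independent result. ERSE was present in HSPA5, HSP90B1 (at 2 places), CALR, CANX, CRELD2 and XBP1, and ERSE-II in SDF2L1, HYOU1 (at 2 places) and HERPUD1. A match describes these letters only and does not show that a factor binds there. The windows below run 5′ to 3′ on the strand of the gene, with the 5-base parts of the element in capitals. In CRELD2 and at the second place in HSP90B1 the element lies on the opposite strand, so that the capitals read CGTGG and ATTGG.
HSPA5 (chr9:125241376-125241424, minus strand): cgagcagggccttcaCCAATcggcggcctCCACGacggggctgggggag
HSP90B1, first place (chr12:103930201-103930249, plus strand): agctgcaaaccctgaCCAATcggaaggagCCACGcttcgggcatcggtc
HSP90B1, second place (chr12:103930306-103930354, plus strand): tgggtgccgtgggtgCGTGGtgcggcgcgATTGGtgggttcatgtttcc
CANX (chr5:179698763-179698811, plus strand): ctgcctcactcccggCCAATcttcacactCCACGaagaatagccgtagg
CRELD2 (chr22:49918539-49918587, plus strand): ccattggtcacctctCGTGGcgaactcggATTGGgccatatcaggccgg
XBP1 (chr22:28800588-28800636, minus strand): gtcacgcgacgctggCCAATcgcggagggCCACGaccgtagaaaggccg
HERPUD1 (chr16:56932010-56932050, plus strand): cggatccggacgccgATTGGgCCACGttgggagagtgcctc

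The levels of the ER genes without inhibitor were compared first, between the DMSO libraries of LNCaP and 22Rv1. Chaperones were lower in LNCaP. All 11 had a negative log2 fold change (LNCaP against 22Rv1), 10 passed the threshold, and the median of the 11 was -1.27, against -0.03 for all genes tested. The exception was DNAJB9, a co-chaperone of the HSPA5 system, at 17.0 ± 8.44 CPM in LNCaP and 30.6 ± 6.89 CPM in 22Rv1 (SD, n = 3; adjusted p = 0.0937). Over all 40 genes tested, 22 passed the threshold (background over all genes 49.0%), with 6 higher in LNCaP (background 24.0%) and 16 lower (background 25.0%). The count over all 40 genes was thus near the background. LNCaP and 22Rv1 libraries did not overlap for 28 of the 40 genes (background 56.4%). With library totals in place of TMM factors the median over all genes was -0.24, and the split was 3 higher and 23 lower.

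HSP90B1, the ER paralog of HSP90, had the largest difference of the 40 genes, and its mean over the 6 DMSO libraries was the highest of the chaperones, although in LNCaP alone CALR was higher. Its level was 239, 257 and 257 CPM in the 3 LNCaP DMSO libraries and 891, 1114 and 844 CPM in the 22Rv1 DMSO libraries (log2 fold change -1.91 ± 0.13 SE, adjusted p = 1.11e-15). HSP90B1 was thus between 3 and 4 times lower in LNCaP, with no overlap. MANF, a small protein that binds HSPA5, was at 149, 149 and 182 CPM in LNCaP and at 536, 606 and 565 CPM in 22Rv1 (-1.81 ± 0.15, adjusted p = 1.10e-13). CRELD2, a disulfide isomerase-like protein of the ER, was at 94.4, 131 and 110.5 CPM in LNCaP and at 402, 296 and 406 CPM in 22Rv1 (-1.75 ± 0.16, adjusted p = 1.94e-12). HSPA5, which encodes BiP, the main ER HSP70 and the protein that holds the sensors inactive, was at 269.5 ± 23.3 CPM in LNCaP and 687 ± 99.4 CPM in 22Rv1 (-1.33, adjusted p = 2.96e-10). The lectin chaperones CANX and CALR, which hold glycoproteins while they fold, were also lower in LNCaP, by -1.36 and -0.95 on the log2 scale.

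The 8 isomerases tested had a median of -0.12, against -1.27 for the chaperones, with 6 values negative and 2 positive. Of the 8, 2 passed the threshold (background 49.0%), PDIA4 lower in LNCaP and P4HB higher. The other 6 did not pass, which does not show that their levels were equal. PDIA4, a disulfide isomerase that works beside BiP, was at 335, 280.1 and 317 CPM in LNCaP and at 819, 837 and 904 CPM in 22Rv1 (-1.44 ± 0.12, adjusted p = 7.00e-13). P4HB, the classical disulfide isomerase, was at 449 ± 21.5 CPM in LNCaP and 342 ± 72.7 CPM in 22Rv1 (0.39, adjusted p = 0.0251). PPIB, a proline isomerase with the highest mean of this group over the 6 DMSO libraries, although PDIA4 was slightly higher in 22Rv1 alone, was at 783, 867 and 805 CPM in LNCaP and at 940.4, 683 and 883 CPM in 22Rv1, with overlapping libraries (-0.03, adjusted p = 0.859).

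In the translocon and TRAP group, 4 of 8 genes were higher in LNCaP (background 24.0%) and 1 was lower (background 25.0%), so that the number past the threshold was near the 49.0% of all genes. Subunits of the TRAP complex differed in opposite directions. The TRAP subunit SSR3 was at 397, 364 and 397 CPM in LNCaP and at 171, 144 and 153 CPM in 22Rv1 (1.32 ± 0.15, adjusted p = 6.91e-10). Its partner SSR2 had the opposite difference, with 231, 178 and 182 CPM in LNCaP and 618, 447 and 613 CPM in 22Rv1 (-1.49 ± 0.14, adjusted p = 1.43e-11). The other subunits, SSR1 and SSR4, lay between them, at 0.44 (adjusted p = 0.0157) and 0.24 (adjusted p = 0.150). SEC61B, the beta subunit of the channel, was at 406, 411 and 369 CPM in LNCaP and at 200.2, 191 and 205 CPM in 22Rv1 (0.99 ± 0.14, adjusted p = 8.46e-08). The pore subunit SEC61A1 (0.12) and the gamma subunit SEC61G (-0.17) did not pass. SEC63, which links the channel to BiP, was at 56.3, 60.2 and 83.9 CPM in LNCaP and at 51.0, 46.8 and 34.6 CPM in 22Rv1 (0.65 ± 0.24, adjusted p = 0.0209). The calls of SEC63 and SSR1 were lost with library totals, and each was lost when some single libraries were left out, SEC63 without LNCaP DMSO replicate 3 or 22Rv1 DMSO replicate 3, and SSR1 without replicate 1 of LNCaP DMSO or replicate 1 or 3 of 22Rv1 DMSO.

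In the oligosaccharyltransferase, DAD1 was higher in LNCaP, with 341, 367 and 365 CPM against 249, 213 and 236 CPM in 22Rv1 (0.62 ± 0.13, adjusted p = 1.82e-04). RPN1, its most abundant gene, was lower, with 478, 408 and 499 CPM against 746, 649 and 742 CPM (-0.61, adjusted p = 6.48e-05), as were the catalytic subunit STT3B (-1.02) and DDOST (-1.21). RPN2, OSTC and the other catalytic subunit, STT3A, did not pass. Of the regulators, XBP1 was at 239, 312 and 348 CPM in LNCaP and at 273, 225 and 239 CPM in 22Rv1, with overlapping libraries (0.29, adjusted p = 0.0979). These counts do not separate spliced from unspliced XBP1. HERPUD1, a degradation factor, was at 50.7, 86.4 and 68.5 CPM in LNCaP and at 132, 127 and 99.0 CPM in 22Rv1 (-0.82, adjusted p = 0.00124).

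**Figure D1:**
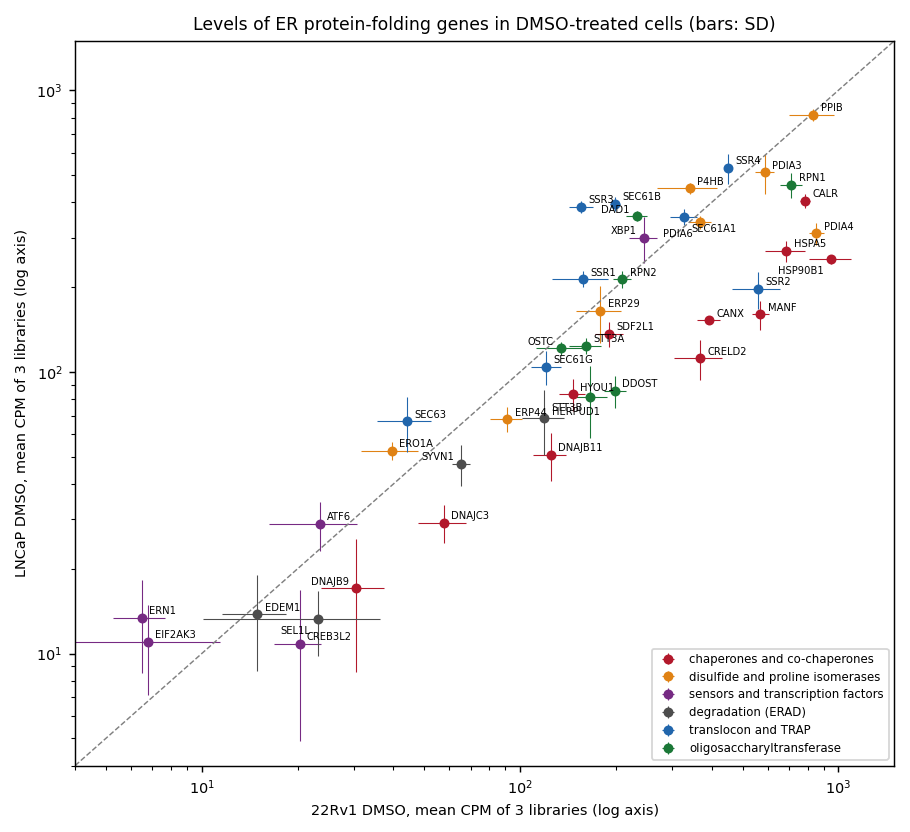
Mean CPM of the 43 ER genes with counts in the 3 LNCaP DMSO libraries (vertical log axis) against the 3 22Rv1 DMSO libraries (horizontal log axis), coloured by role, with bars for the SD and a dashed line of equal levels. All 11 chaperones lie below the line, while SSR3 (386 against 156 CPM) and SEC61B (395 against 199 CPM) lie above it.

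Treatment with SEL120-34A was then examined in 22Rv1. HSPA5, HSP90B1, PDIA4 and CANX fell, and SSR4 and DAD1 rose, so that 6 of the 40 genes passed the threshold (background 5.70%). The 4 that fell were 4 of 40 (background 1.55%) and the 2 that rose were 2 of 40 (background 4.15%). At an unadjusted p under 0.05 there were 10 genes (background 19.1%), and treated and DMSO libraries did not overlap for 12 (background 23.0%). The median log2 fold change of the 40 genes was -0.01, against 0.00 for all genes, and 20 values were positive and 20 negative. The list as a whole thus had a median near that of all genes. The 22Rv1 DMSO libraries served in this comparison and in that of LNCaP with 22Rv1.

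HSPA5 (ENSG00000044574.9, chromosome 9, 125234853 to 125241382) showed the largest fall. It was at 738, 751 and 572 CPM in the DMSO libraries and at 389, 245 and 408 CPM in the treated libraries (log2 fold change -0.94 ± 0.15 SE, adjusted p = 2.72e-05). All treated libraries were below all DMSO libraries, and the mean treated level, 347 ± 89.2 CPM, remained above the 269.5 ± 23.3 CPM of LNCaP DMSO. HSP90B1 (ENSG00000166598.16, chromosome 12, 103930107 to 103953931) went from 891, 1114 and 844 CPM to 615, 579 and 696 CPM (-0.57 ± 0.13, adjusted p = 0.00347), again with no overlap. PDIA4 (ENSG00000155660.11, chromosome 7, 149003062 to 149028662) went from 819, 837 and 904 CPM to 642, 515 and 570.5 CPM (-0.55 ± 0.12, adjusted p = 0.00393). These 3 genes passed the threshold under all 23 alternative settings tried.

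CANX (ENSG00000127022.16, chromosome 5, 179678628 to 179731641), the membrane-bound lectin chaperone, went from 361, 427 and 391 CPM to 254, 206 and 308 CPM (-0.59 ± 0.15, adjusted p = 0.0105). Its call was lost without treated replicate 1 (adjusted p = 0.0710), without treated replicate 2 (adjusted p = 0.124), and when a trend with transcript length and GC content was removed (adjusted p = 0.0638). Its soluble relative CALR was at 779, 818 and 759 CPM and then at 717, 665 and 636 CPM, which did not pass (-0.21, adjusted p = 0.364) although the libraries did not overlap.

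The genes that rose are small subunits of membrane complexes. SSR4 (ENSG00000180879.14, chromosome X, 153793516 to 153798499), a TRAP subunit, was at 442, 444 and 463 CPM in DMSO and at 535, 841 and 542 CPM after SEL120-34A (0.50 ± 0.14, adjusted p = 0.0302). The value of 841 CPM came from the shallowest library, treated replicate 2, and without it the change was 0.28 (adjusted p = 0.366). The call was also lost without DMSO replicate 1, 2 or 3 (adjusted p = 0.102, 0.0811 and 0.0869). DAD1 (ENSG00000129562.11, chromosome 14, 22564907 to 22589224) was at 249, 213 and 236 CPM and then at 339, 322 and 297 CPM (0.47 ± 0.14, adjusted p = 0.0449), and lost its call under 17 of the 23 settings, with adjusted p up to 0.468. These included leaving out any DMSO library of either line, LNCaP treated replicate 1 or 2, or 22Rv1 treated replicate 1 or 2. Neither SSR4 nor DAD1 passed with library totals in place of TMM factors, a scaling under which the median over all genes was -0.14 and which gave 0 rises and 4 falls among the 40 genes.

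**Figure D2:**
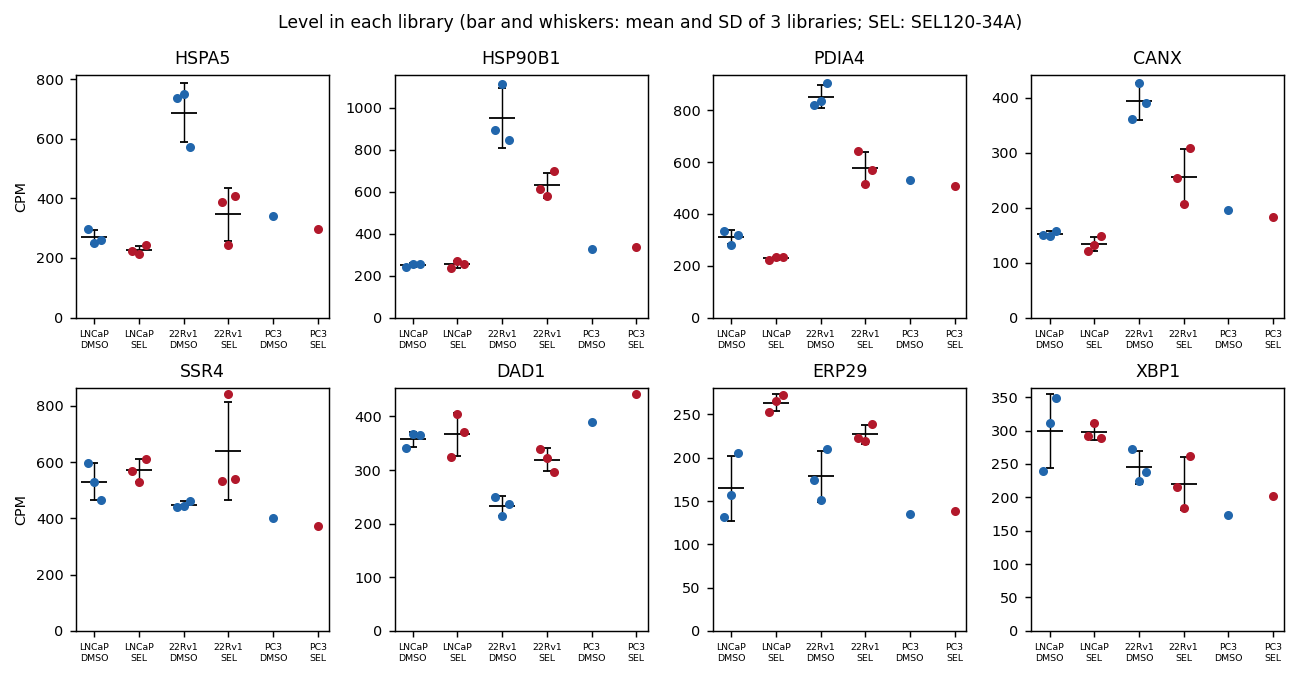
CPM of 7 ER genes past the threshold in a line, and of XBP1, in every library (points), with the mean and SD of 3 libraries as bars and the libraries in the order of their replicate numbers. In 22Rv1 all treated libraries of HSPA5, HSP90B1, PDIA4 and CANX lie below the DMSO libraries, whereas XBP1 overlaps.

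Other genes with the same role or the same promoter element did not pass in 22Rv1. CRELD2, whose promoter holds ERSE, was at 402, 296 and 406 CPM in DMSO and at 405, 408 and 391 CPM after treatment (0.13, adjusted p = 0.681). XBP1 was at 273, 225 and 239 CPM and then at 215, 185 and 262 CPM (-0.12, adjusted p = 0.759). MANF was at 536, 606 and 565 CPM and then at 719, 609 and 565 CPM (0.17, adjusted p = 0.559). Of the 6 genes with ERSE in the window, HSPA5, HSP90B1 and CANX fell. Of all 40 ER genes tested, 4 fell (background 1.55%). CALR, CRELD2 and XBP1 did not pass, which does not show that they responded differently. The elements were chosen for display after the response was seen, so a link between ERSE and the fall was not tested. None of the 3 genes with ERSE-II passed, with values of 0.25 for SDF2L1, 0.22 for HYOU1 and -0.21 for HERPUD1. PDIA4 fell, and no exact match to either motif was found in its window. Elements with mismatches were not searched for in any gene. The other co-chaperones DNAJB9 (0.48), DNAJB11 (0.12) and DNAJC3 (-0.52) did not pass either. Summed over the 11 chaperones, the level was 4235, 4569 and 4105 CPM in 22Rv1 DMSO and 3649, 3365 and 3642 CPM after treatment. The sum is weighted to the abundant genes and includes HSPA5, HSP90B1 and CANX, so it is not independent of their falls. The median log2 fold change of the 11 was 0.12, with 6 values positive and 5 negative.

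Among the isomerases other than PDIA4, 2 had an unadjusted p under 0.05 in 22Rv1, and the values of all 7 lay between -0.30 (ERO1A, the oxidase of the disulfide isomerases) and 0.41 (ERP44, a retention factor of the secretory pathway). PPIB was at 940.4, 683 and 883 CPM and then at 1006, 974 and 901 CPM (0.21, adjusted p = 0.376). In the oligosaccharyltransferase, RPN1 was at 746, 649 and 742 CPM and then at 736, 622 and 776 CPM (0.02, adjusted p = 0.963). HERPUD1 was at 132, 127 and 99.0 CPM and then at 121, 116 and 68.5 CPM, with overlapping libraries. ATF6 (-0.42) and CREB3L2 (-0.88), a membrane-bound transcription factor related to ATF6, rested on few counts and did not pass.

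**Figure D3:**
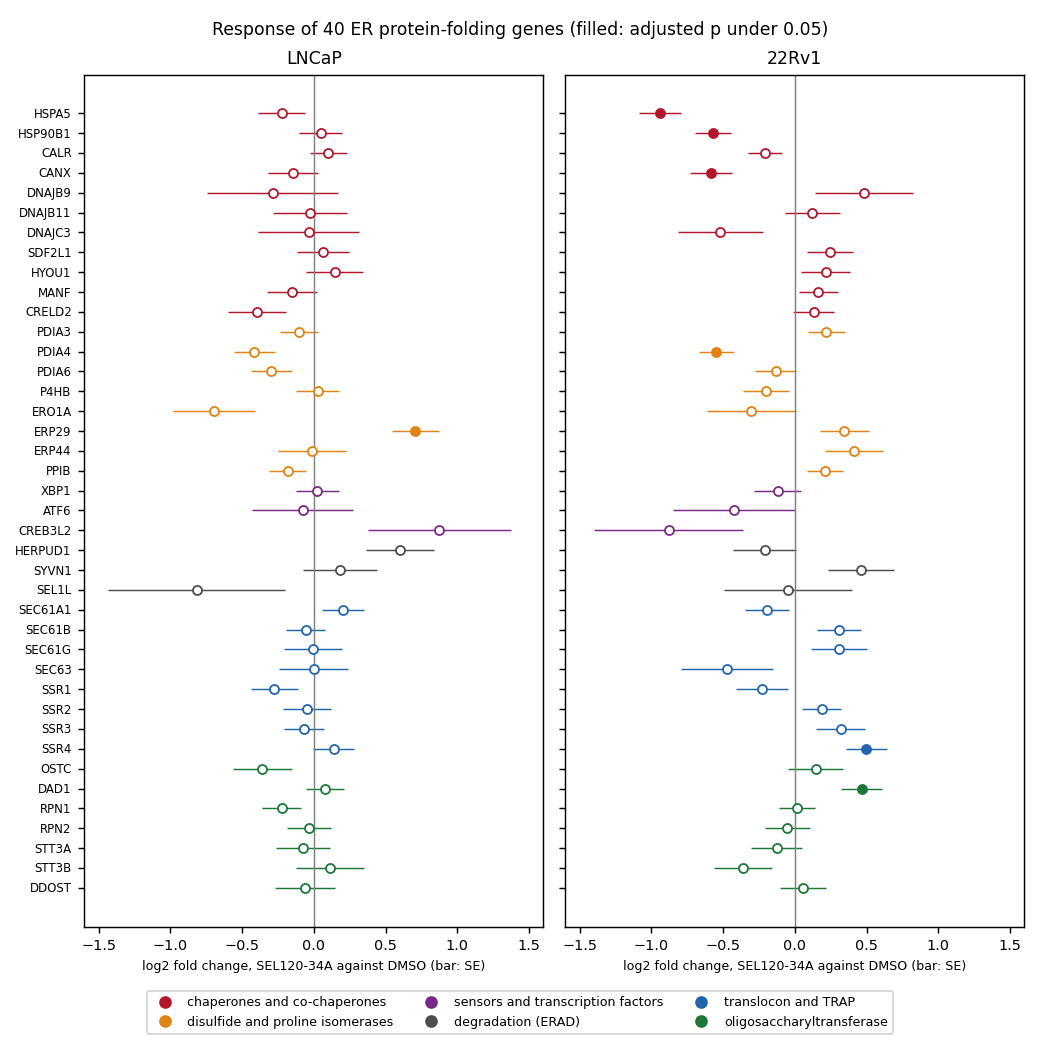
Log2 fold change of SEL120-34A against DMSO (horizontal axis, bars for the SE) of the 40 ER genes tested, in LNCaP (left) and 22Rv1 (right), grouped and coloured by role, with filled points for an adjusted p under 0.05. In 22Rv1, 6 points are filled, from -0.94 for HSPA5 to 0.50 for SSR4, and in LNCaP 1 point is filled, ERP29 at 0.71.

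Transcript length moved with the response in 22Rv1. Over all 7086 genes the log2 fold change in 22Rv1 fell with the length of the canonical transcript (Spearman's rho -0.33), and over the 40 ER genes rho was -0.57. These are descriptions across genes of the same libraries. In LNCaP the corresponding values were 0.04 and -0.10. The 7 ER genes with transcripts under 1000 bases all had positive values in 22Rv1 (median 0.31), as did 606 of all 777 genes of that length (median 0.28). The 17 ER genes of 3000 bases or more had a median of -0.23, against -0.14 for all genes of that length. SSR4 and DAD1 have transcripts of 608 and 684 bases, and CANX has one of 4915 bases. With the trend with length and GC content removed, the log2 fold changes were -0.79 for HSPA5 (adjusted p = 9.19e-05), -0.51 for HSP90B1 (0.00531) and -0.51 for PDIA4 (0.00281), which still passed. Those of CANX (-0.41), SSR4 (0.19) and DAD1 (0.28) did not. The part of depth or RNA quality in this trend was not tested.

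**Figure D4:**
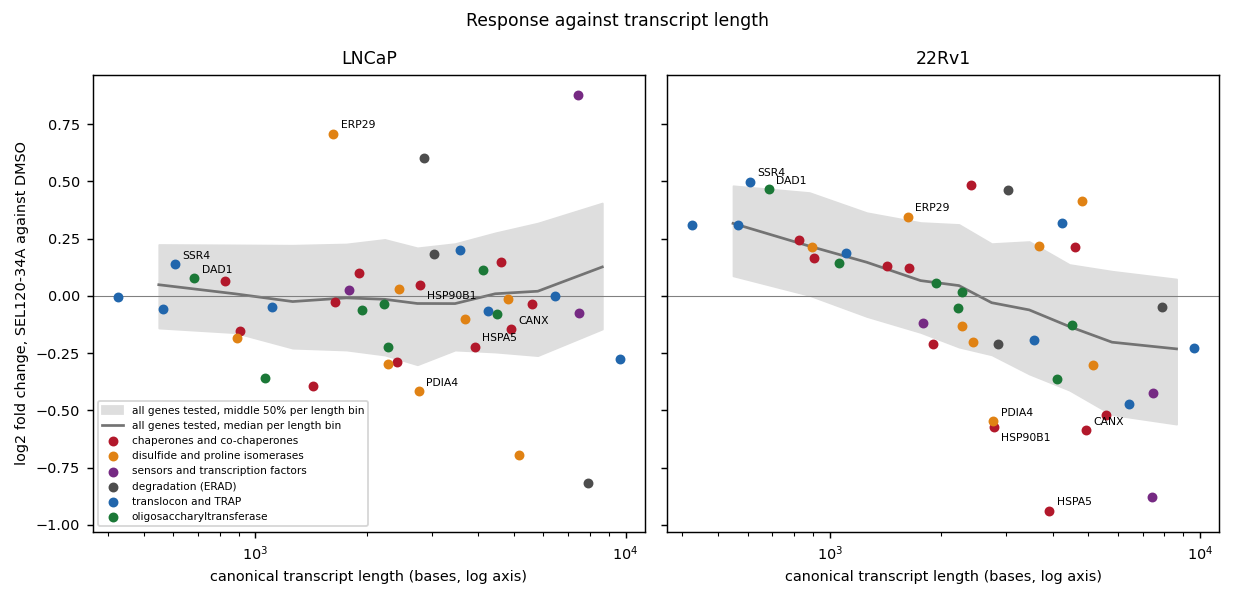
Log2 fold change of SEL120-34A against DMSO (vertical axis) against canonical transcript length (horizontal log axis) in LNCaP (left) and 22Rv1 (right), with points for the 40 ER genes coloured by role, a line for the median of all genes tested in bins of length and a grey band for their middle 50%. The line falls with length in 22Rv1 and not in LNCaP. Among the points below the band in 22Rv1 are HSPA5, HSP90B1, PDIA4 and CANX.

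In LNCaP, 1 of the 40 genes passed the threshold (background 2.77%). At an unadjusted p under 0.05 there were 5 (background 13.5%). Treated and DMSO libraries did not overlap for 10 (background 19.4%), with 8 lower and 2 higher after treatment. Over all 7086 genes, 757 were lower without overlap and 621 were higher. The median log2 fold change was -0.04, against 0.00 for all genes. The gene that rose was ERP29 (ENSG00000089248.7, chromosome 12, 112013348 to 112023449), an ER protein of the disulfide isomerase family that lacks the catalytic motif. It was at 131, 157 and 206 CPM in DMSO and at 253, 266 and 272 CPM after SEL120-34A (0.71 ± 0.16 SE, adjusted p = 0.00963). The treated libraries lay close together and above all DMSO libraries. Leaving out DMSO replicate 1 lowered the change to 0.55 and ended the call (adjusted p = 0.102), as did limma-trend.

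As fewer than 3 genes passed in LNCaP, those with the next smallest p are given, none of which passed. PDIA4 was at 335, 280.1 and 317 CPM and then at 222, 233 and 232 CPM, with no overlap (-0.42 ± 0.14, adjusted p = 0.126). It passed with library totals (adjusted p = 0.0418). HERPUD1 was at 50.7, 86.4 and 68.5 CPM and then at 89.7, 117 and 88.7 CPM (0.60 ± 0.23, adjusted p = 0.200). ERO1A was at 56.3, 52.4 and 48.9 CPM and then at 23.4, 35.2 and 33.8 CPM (-0.70 ± 0.29, adjusted p = 0.239). PDIA6, another disulfide isomerase, was at 331, 327 and 361 CPM and then at 277, 236 and 299.9 CPM (-0.30 ± 0.14, adjusted p = 0.359). Of these 5 genes, 4 were isomerases, a group with 8 of the 40 genes tested, and they differed in sign. The 5 were picked by their p, and their number was near the background of 13.5%. They therefore do not show a response of the isomerases as a group.

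The chaperones that fell in 22Rv1 did not pass in LNCaP. HSPA5 was at 296, 251 and 261 CPM in LNCaP DMSO and at 222, 214 and 243 CPM after SEL120-34A (-0.22 ± 0.16, 95% interval -0.60 to 0.15). HSP90B1 was at 239, 257 and 257 CPM and then at 234, 271 and 253 CPM (0.05, adjusted p = 0.935). CANX was at 151, 149 and 158 CPM and then at 121, 133 and 148 CPM (-0.14, adjusted p = 0.788). For HSPA5 and CANX all treated libraries lay below all DMSO libraries (background without overlap, either way, 19.4%), and for HSP90B1 they overlapped. The most abundant genes of the other groups did not pass either. PPIB was at 783, 867 and 805 CPM and then at 779.8, 678 and 663 CPM (-0.18), and RPN1 was at 478, 408 and 499 CPM and then at 366, 379 and 416 CPM (-0.22). SSR4 was at 597, 529 and 466 CPM and then at 569, 531 and 612 CPM (0.14). XBP1 was at 239, 312 and 348 CPM and then at 292, 312 and 289 CPM (0.03).

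Whether the lines differed in their response was tested directly. For the effect in LNCaP minus that in 22Rv1, 0 of the 40 genes passed with edgeR (background 0.734%), and 0 passed with DESeq2 and with limma. At an unadjusted p under 0.05 there were 6 (background 11.4%). HSPA5 had a difference of 0.72 ± 0.22 SE (adjusted p = 0.145) and HSP90B1 one of 0.62 ± 0.20 (adjusted p = 0.162), with 95% intervals of 0.21 to 1.23 and 0.17 to 1.07. The fall of the chaperones past the threshold in 22Rv1 and not in LNCaP is therefore not shown to differ between the lines after adjustment over all genes. The average of both effects was past the threshold for 5 of the 40 genes (background 6.01%). HSPA5 fell by 0.58 (adjusted p = 5.43e-04) and PDIA4 by 0.48 (adjusted p = 7.85e-04) on the log2 scale. ERP29 rose by 0.53 (adjusted p = 0.00347), and these 3 passed under all 22 alternatives. In 22Rv1, ERP29 was at 175, 152 and 209.9 CPM in DMSO and at 223, 219 and 239.6 CPM after treatment (0.35, adjusted p = 0.255 in that line alone). CANX (-0.37, adjusted p = 0.0433) and SSR4 (0.32, adjusted p = 0.0492) were close to the threshold and lost their calls under 13 and 16 of the 22, most of them fits without a single library, with adjusted p up to 0.207 and 0.409.

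In PC3, with 1 library per arm, the values compare those libraries only and no test was possible. Of the 45 genes, 37 had at least 20 counts in both libraries. Their median log2 ratio of SEL120-34A to DMSO was 0.04, against 0.06 for the 4682 genes of the series with as many counts. The counting interval of the ratio, which covers counting error only, did not include 0 for 7 of the 37 genes (background 14.9%). The largest ratios upward were those of SEC61G at 0.46 (126 to 174 CPM), DNAJB11 at 0.45 (65.3 to 89.4 CPM) and SDF2L1 at 0.40 (146 to 193 CPM). The largest downward were those of SSR2 at -0.41 (286 to 216 CPM), HERPUD1 at -0.38 (72.9 to 56.1 CPM) and SEC61A1 at -0.38 (271 to 209 CPM). The intervals of DNAJB11 (-0.11 to 1.02) and HERPUD1 (-1.03 to 0.25) included 0. HSPA5 was at 341 CPM in PC3 DMSO and 298 CPM in the treated library (-0.19, interval -0.47 to 0.08), HSP90B1 at 329 and 337 CPM, and PDIA4 at 529 and 509 CPM. ERO1A, at 210.1 CPM in PC3 DMSO, was at 52.5 ± 3.71 CPM in LNCaP and 39.7 ± 7.99 CPM in 22Rv1, and PPIB was at 511 CPM.

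Other genes of ER protein handling, and the cytosolic heat shock genes, were read from 5 further lists. In 22Rv1, the list of further targeting, translocation, signal peptide cleavage, membrane insertion and oligosaccharyltransferase genes had 4 rises (background 4.15%) and 0 falls (background 1.55%) past the threshold among 23 tested (median 0.20). SRP9, of the signal recognition particle, went from 517 to 561 CPM over the DMSO libraries to 791 to 1026 CPM over the treated ones (0.70 ± 0.13 SE, adjusted p = 2.77e-04). The signal peptidase subunits SEC11A (0.75 ± 0.14, adjusted p = 6.15e-04) and SPCS2 (0.81 ± 0.20, adjusted p = 0.00976) also rose. Of 15 other oxidoreductases and folding factors, AGR2, a disulfide isomerase of mucus-secreting cells, fell from 103 to 141 CPM down to 34.3 to 48.5 CPM (-1.52 ± 0.26, adjusted p = 1.02e-04), and 0 rose. Of 20 genes of degradation and glycan processing, AUP1 rose (0.46, adjusted p = 0.0496) and 0 fell. Of 12 transducers and genes of the PERK arm, 0 passed with edgeR, and 2 had an unadjusted p under 0.05 (background 19.1%).

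Of 16 cytosolic heat shock genes, 3 fell in 22Rv1 (background 1.55%) and 0 rose (background 4.15%), with a median of -0.10. Those that fell encode the constitutive HSP70 and both cytosolic HSP90 proteins. HSP90AA1 was at 667 to 962 CPM in DMSO and at 365 to 479 CPM after treatment (-0.88 ± 0.14, adjusted p = 3.81e-05). HSPA8 was at 1141 to 1666 CPM and then at 743 to 984 CPM (-0.67 ± 0.13, adjusted p = 0.00114), and HSP90AB1 was at 1743 to 2345 CPM and then at 1082 to 1497 CPM (-0.53 ± 0.14, adjusted p = 0.0150).

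In LNCaP, 3 of the 86 genes of these lists that were tested passed, near the background of 2.77%. SEC11C, a catalytic subunit of the signal peptidase, rose from 466 to 700.1 CPM over the DMSO libraries to 1415 to 2051 CPM over the treated ones (1.54 ± 0.14, adjusted p = 2.75e-10). CLGN, a calnexin-like chaperone of the testis, was at 41.9 to 62.0 CPM and then at 11.7 to 35.9 CPM (-1.28 ± 0.37, adjusted p = 0.0486). CREB3L4, an androgen-regulated relative of ATF6, was at 127 to 147 CPM and then at 56.9 to 101 CPM (-0.79 ± 0.21, adjusted p = 0.0269). Of the degradation and heat shock lists 0 genes passed in LNCaP with edgeR, with 1 and 3 at an unadjusted p under 0.05 (background 13.5%).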

How the data were processed

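BRB-seq (3′ tags of barcoded RNA, sequenced as a pool) was performed on 14 libraries. Per the labels and methods, the authors aligned and counted reads with STARsolo (GENCODE release 43, GRCh38.p13) and deposited raw counts per gene. UMI collapsing was not stated. If duplicate reads were kept, the counting intervals and floors understate even the error of counting. At best they cover that error only. A second table deposited by the authors holds log2 CPM of 9638 genes. Recomputing it from the counts (TMM, prior count 2) gave the values to within 5e-14. Positions and lengths were from GENCODE release 44 and promoters from RefSeq.

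Counts of the 12 LNCaP and 22Rv1 libraries were fitted in edgeR 4.0.16 (R 4.3.3) with 1 mean for each of the 4 groups, TMM, the low-count filter (7086 genes) and the quasi-likelihood F-test (8 residual degrees of freedom). Adjusted p-values are Benjamini-Hochberg over all 7086 genes, with a threshold of 0.05. The 95% intervals of log2 fold changes used the 8 residual degrees of freedom alone, fewer than the F-test used. They are therefore wider than the unadjusted p-values imply. The code was tested on simulated data. The paper gives at least 3 biological replicates for its experiments, except where it says otherwise. The labels do not say whether the replicates of these libraries were separate cultures, so p-values measure the spread between these samples.

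The genes, lists and alternatives were chosen with earlier results of these data known. Values per library are given for genes past the threshold, for the most abundant gene of each role, and, where fewer than 3 passed, for the 5 with the smallest p, plus the 5 largest differences each way between DMSO groups, 3 each way in PC3 and 3 per further list. CALR, DNAJB9 and P4HB were added for contrast after their values were seen. The alternatives were the replicate block, DESeq2 size factors, library totals, no filter, a minimum of 10 counts per library, LNCaP and 22Rv1 fitted separately, PC3 included, libraries thinned to equal depth, the DESeq2 1.42.0 Wald test, limma-trend (limma 3.58.1) on the deposited log2 values and each library left out. Removal of a trend with length and GC content was added after seeing the data.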

Additional observations from a re-analysis of the deposited data

Results flagged for a closer look

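No gene among the 40 ER genes differed between LNCaP and 22Rv1 in its response past the threshold with edgeR (6 had an unadjusted p under 0.05). In the 5 further lists, 5 of 86 genes tested did (0.734% of all genes), by the test of the LNCaP effect minus the 22Rv1 effect. SEC11C had a difference of 1.05 ± 0.21 SE (adjusted p = 0.00514), with a larger rise in LNCaP (1.54) than in 22Rv1 (0.49). The call was lost in 1 of 22 alternatives, limma-trend (adjusted p = 0.143). Of the other signal peptidase subunits, 2 differed the opposite way, SEC11A by -0.91 ± 0.21 (adjusted p = 0.0264) and SPCS3 by -1.01 ± 0.25 (adjusted p = 0.0336). SPCS1 (-0.27, adjusted p = 0.557) and SPCS2 (-0.69, adjusted p = 0.407) did not pass. SEC11A was at 313 ± 43.2 CPM in LNCaP DMSO and 276 ± 23.9 CPM after treatment, and at 318 ± 41.2 and 529.9 ± 80.4 CPM in 22Rv1. SPCS3 was at 161 ± 29.0 and 110.3 ± 19.8 CPM in LNCaP, and at 182 ± 16.9 and 259 ± 35.0 CPM in 22Rv1. SRP9 differed by -0.73 ± 0.18 (adjusted p = 0.0418) and HSP90AA1 by 0.78 ± 0.20 (adjusted p = 0.0461). SEC11A lost its call in 7 of the 22 alternatives, SPCS3 in 12, SRP9 in 15 and HSP90AA1 in 12, among them fits without single libraries of both lines, and adjusted p reached 0.142, 0.146, 0.181 and 0.211.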

How the results depend on the processing

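In LNCaP, 1 ER gene passed in the reported fit, 2 with library totals, 0 with limma-trend, and 0 to 1 when single libraries were left out. In 22Rv1, 6 passed, 3 with the length and GC trend removed, and 3 to 6 without single libraries, the 3 arising without treated replicate 2. For the average effect, 5 passed, and 3 at equal depth, with the DESeq2 Wald test, with limma-trend and with the length and GC trend removed, and 3 to 5 without single libraries. In the further lists, 3 genes passed in LNCaP and 9 in 22Rv1. These became 1 in LNCaP with at least 10 counts in every library, at equal depth, with the DESeq2 Wald test and with limma-trend, and 1 to 4 without single libraries. In 22Rv1 they became 5 with limma-trend and 5 to 9 without single libraries. None of the 26 results of ER genes followed through the alternatives changed sign. Of their refits, 518 kept their side of the threshold, 72 lost a call and 1 gained one. Sign was not followed for the other genes given here, and some of them changed it. With the length and GC trend removed, the 22Rv1 values of CRELD2 (0.13), SDF2L1 (0.25) and MANF (0.17), for example, became -0.03, -0.05 and -0.001. Fitting each line separately gives no value for the average or the difference. The cause of these changes was not tested, apart from the fewer counts at equal depth. Deviations of same-numbered libraries correlated by 0.08, -0.05 and 0.12 in LNCaP and 0.02, -0.01 and 0.03 in 22Rv1. These weak values do not settle whether the replicate numbers pair the samples. With the replicate block, 1, 6, 5, 0 and 23 ER genes passed in LNCaP, in 22Rv1, for the average, for the difference and between DMSO groups, against 1, 6, 5, 0 and 22 without it. Over all 7086 genes, in the same order, 240, 450, 502, 68 and 3507 passed with the block and 196, 404, 426, 52 and 3473 without it. Depth limits the sensors most, since ERN1 and EIF2AK3 had 79 and 66 counts in all.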
